A study of Mus musculus with 33 samples.

Results

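The mRNAs of 10 genes that act in shortening poly(A) tails and clearing maternal mRNA were followed in single mouse oocytes: *Btg4*, *Tob1*, *Zfp36l2*, *Cnot1*, *Cnot6*, *Cnot6l*, *Cnot7*, *Cnot8*, *Pan2* and *Parn*. The genes were chosen by symbol, and all 10 were found among the 35321 genes of the count table. In *Nlrp5*+/+ oocytes the adaptor genes *Btg4* and *Tob1* differed in opposite directions between the less and the more mature stage. *Btg4* was 1.31-fold higher at the mature stage and *Tob1* was 3.04-fold lower, in each case without overlap between oocytes. The *Btg4* difference was near the middle of all genes in size. *Cnot7*, a catalytic subunit gene, was 2.02-fold higher at the mature stage in *Nlrp5*+/+ and 2.05-fold higher in *Nlrp5*+/-, whereas in *Nlrp5*-/- its oocytes of the stages overlapped widely and the direction depended on how they were summarised.

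A growing oocyte stores mRNA that has to be removed during meiotic maturation and after fertilization, because the chromatin is silent by then. Removal starts with deadenylation, mostly by the CCR4-NOT complex, in which CNOT1 is the scaffold, CNOT7 and CNOT8 are the CAF1-type nucleases and CNOT6 and CNOT6L are the CCR4-type nucleases. BTG4 and TOB1 are adaptors that bind the CAF1-type nucleases, and ZFP36L2 brings the complex to AU-rich mRNA. PAN2 is the nuclease of the separate PAN2-PAN3 complex, and PARN is a further poly(A)-specific ribonuclease. Several of these factors are kept as dormant mRNA in the immature oocyte and are translated only when meiosis resumes, so their mRNA level need not follow their protein level.

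The data comprised 33 germinal vesicle oocytes of 3-week-old C57BL6/Babr females, each made into 1 library from its polyadenylated RNA. There were 10 oocytes of genotype *Nlrp5*+/+, 16 of *Nlrp5*+/- and 7 of *Nlrp5*-/-. The mutant allele is a small deletion made with CRISPR/Cas9 in zygotes and bred on as a line, so it is present in the whole animal. *Nlrp5* encodes NALP5, a core protein of the subcortical maternal complex of the oocyte. Litters were shared between *Nlrp5*-/- and *Nlrp5*+/- donors, but mostly not with *Nlrp5*+/+ donors, whose genotype and colony cannot be fully told apart. Stages were taken from the study's plots, since the labels give none, and those of *Nlrp5*+/- were read from a small picture. Non-surrounded nucleolus (NSN) oocytes, the less mature form, numbered 4 *Nlrp5*+/+, 9 *Nlrp5*+/- and 4 *Nlrp5*-/-. Surrounded nucleolus (SN) oocytes numbered 6, 7 and 2, and *Nlrp5*-/- oocyte 15 had no stage. The study's text gives fewer staged *Nlrp5*+/- oocytes than were read from its picture, so results that use the stage of *Nlrp5*+/- oocytes are less sure than the others. The stages rest on 105 NSN and 59 SN marker genes read in these same libraries. *Cnot6l* is 1 of the SN markers, so its stage values describe the staging, and it was left out of stage counts and medians. The other 9 genes were measured in the same libraries that were staged.

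Counts on genes summed to 4225037 to 15579217 per oocyte. The targeted gene *Nlrp5* stood at 176 to 328 CPM (counts scaled to the same total in every library) in *Nlrp5*-/-, 630 to 1736 in *Nlrp5*+/- and 1295 to 3896 in *Nlrp5*+/+ oocytes. All 8 oocyte markers had counts in every library. The summed level of 16 granulosa cell markers was 279 to 475 CPM in 31 oocytes, 672 CPM in *Nlrp5*-/- oocyte 14 and 1315 CPM in oocyte 15, and *Serpine2* made up 71.8% of it in *Nlrp5*+/+. The granulosa markers *Foxl2* and *Amh* were at 0 in 18 and 20 oocytes, but *Inha* and *Gja1* each in only 3. *Cyp19a1*, *Kitl*, *Nr5a2* and *Serpine2* had counts in every oocyte. The 8 theca and interstitial markers summed to 5.25 to 105 CPM in 30 oocytes, to 239 in oocyte 14, 318 in *Nlrp5*+/- oocyte 61 and 669 in oocyte 15. The 10 markers of stroma, vessel and blood summed to 45.6 to 241 CPM, with *Pecam1* at 89.8% of the list in *Nlrp5*+/+. *Ptprc* was at 0 in 29 oocytes, but *Dcn* in only 3. Each first index sequence occurred with 1 genotype only, so index and genotype cannot be told apart. The labels name no mouse, so the oocytes of 1 genotype and stage count as 1 sample. No test between groups was made. An SD given with a mean is that over single oocytes. Counts were divided by size factors, which makes them shares of each oocyte's RNA and not amounts per cell. Log2 ratios were taken between means with 1 added to each mean.

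Per kilobase of transcript, a scaling that corrects for length only, *Btg4* stood far above the rest. The libraries start from poly(A) tails, and the part of tail length in these levels, or in the stage ratios below, was not tested. In *Nlrp5*+/+ NSN oocytes its level was 6062 ± 839 normalized counts per kilobase (SD, n = 4). *Cnot7* followed at 570 ± 216, *Cnot8* at 533 ± 119 and *Cnot6l* at 305 ± 126. *Cnot7* and *Cnot8* lay within each other's spread. *Pan2* at 262 ± 31.2 and *Cnot1* at 261 ± 114 came next and did not differ from *Cnot6l* beyond the spread, then followed *Parn* at 120 ± 13.7 and *Tob1* at 91.3 ± 20.6. *Cnot6* at 47.3 ± 18.5 was well below its paralog *Cnot6l*, and *Zfp36l2* was last at 14.9 ± 8.26. In SN oocytes of the same genotype *Btg4* stood at 7918 ± 540 per kilobase (n = 6), *Cnot7* at 1151 ± 337 and *Cnot8* at 783 ± 102. *Tob1* had by then a level of 29.8 ± 6.37, near that of *Cnot6* at 31.3 ± 15.1. *Btg4* was first and *Zfp36l2* last in each of the 6 groups of genotype and stage. The paralog pairs *Cnot7* and *Cnot8*, and *Cnot6* and *Cnot6l*, are alike in sequence, and how reads that match both were counted is not given in the sources used here.

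**Figure D1:**
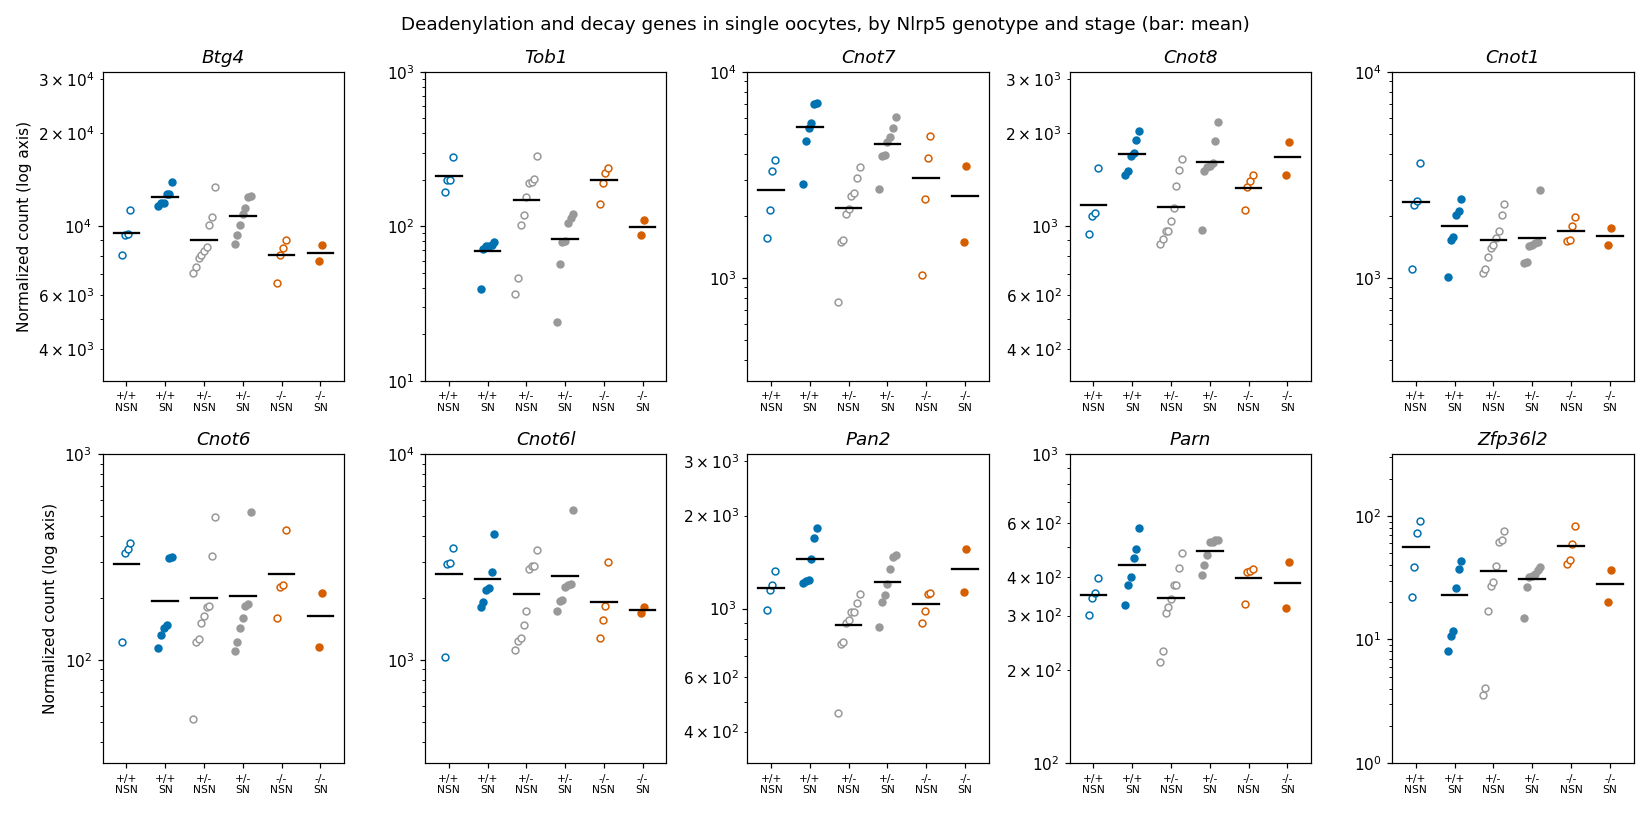
Normalized count of each gene in each of the 32 staged oocytes on a log axis, by genotype and stage (open circles NSN, filled circles SN, bar the mean of the group). The 6 *Nlrp5*+/+ SN oocytes sit above all 4 NSN oocytes for *Btg4* and below all 4 for *Tob1*, and the 2 *Nlrp5*-/- SN oocytes lie below the 6 *Nlrp5*+/+ SN oocytes for *Btg4*.

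Because the libraries start from poly(A) tails, the annotated 3′ ends of the mRNAs are shown for the 4 genes whose last 100 bases hold TTTTAT or TTTTAAT, letters of the cytoplasmic polyadenylation element through which CPEB controls dormant oocyte mRNA. *Tob1*, which had the largest stage difference of the genes in *Nlrp5*+/+ and neither motif there, is shown beside them. Capitals mark these motifs and the polyadenylation signals AATAAA or ATTAAA, on the transcript strand only, in 30 bases of the canonical GENCODE transcript on GRCm39. The windows lie at chr9:51031105-51031134 (plus strand), chr8:40943892-40943921 (minus), chr11:58009379-58009408 (plus), chr10:128157196-128157225 (plus) and chr11:94106305-94106334 (plus), in the order of the lines.
Btg4: ccctTTTTATgtctttttaaaagtttgatt
Cnot7: acacTTTTATtcctttctttttttgaagac
Cnot8: atgtTTTTAATtttgtaaAATAAAgattgc
Pan2: taaaagtatTTTTATctcattagaaaaccg
Tob1: ttctttaaaATTAAAaatgcctatcctgtg
TTTTAT or TTTTAAT was thus present in 4 of 10 members. The share was 16.9% of 19502 annotated mRNAs with a 3′ untranslated region of at least 100 bases, and 18.2% of the 11437 among them with a mean of at least 10 normalized counts here. AATAAA or ATTAAA was present in 6 of 10 members against 77.4% and 79.3%. *Btg4*, *Cnot1*, *Cnot7* and *Zfp36l2* had neither signal in the last 100 bases of the annotated transcript. The end used in these oocytes was not read, and a match is a description of letters only.

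The first question was how these mRNAs differ between the NSN and SN stages of unmutated oocytes. Of the 9 genes counted, 4 lay past 1.5-fold in *Nlrp5*+/+ oocytes, with *Cnot7* higher and *Tob1*, *Zfp36l2* and *Cnot6* lower at SN. Across all 13580 genes with a mean of at least 10 normalized counts, 27.9% lay past 1.5-fold. For 2 of the 9 genes the oocytes of both stages did not overlap, against 9.79% of all genes. The median log2 ratio over the 9 genes was 0.31, beside 0.03 over all genes, and 5 of the 9 were above 0.

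*Btg4* (chr9:51060901-51119875, plus strand, GRCm38), the oocyte adaptor without which maternal mRNA persists, was counted at 8071, 9354, 9461 and 11283 in the *Nlrp5*+/+ NSN oocytes. In SN oocytes the lowest value was 11607, the median 12300 and the highest 13922. The ranges thus abutted without overlap, and the means of 9542 ± 1321 and 12463 ± 851 gave a log2 ratio of 0.39. The median absolute log2 ratio over all genes was 0.34. Within the 3 index sequences of this genotype the ratio was 0.38, 0.45 and 0.35. Summed over oocytes, *Btg4* took 1298 CPM at NSN (95% Poisson interval 1286 to 1309) and 1578 at SN (1569 to 1587), intervals that cover counting error only.

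*Tob1* (chr11:94211454-94215495, plus strand) showed the opposite order. Its normalized counts were 168, 200, 201 and 280 in the 4 NSN oocytes and had a lowest value of 39.4, a median of 74.4 and a highest value of 79.4 in the SN oocytes. Every SN oocyte was below every NSN oocyte, and the log2 ratio was -1.60. The summed level was 28.97 CPM (27.26 to 30.76) at NSN and 8.692 CPM (8.003 to 9.425) at SN. Within the index sequences the ratio was -1.44, -1.41 and -1.90.

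*Cnot7* (chr8:40492540-40515847, minus strand) had 1556, 2124, 3298 and 3752 normalized counts in the NSN oocytes. The SN oocytes ran from 2839 through a median of 5495 to 7066. Only the lowest SN oocyte, number 80, fell within the NSN range, and the other 5 were above it. The means of 2683 ± 1017 and 5419 ± 1588 gave a log2 ratio of 1.01, with 0.46, 1.98 and 0.87 within the index sequences. *Cnot7* overlaps *Zdhhc2* (252 normalized counts on average over all oocytes) and *Vps37a* (490) on the opposite strand. Whether strand was used in counting is not stated, so reads of the overlapping genes cannot be told apart here.

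*Cnot8* (chr11:58104153-58118594, plus strand), the other CAF1-type nuclease gene, differed in the same direction and less. It stood at 947, 1080, 1104 and 1548 at NSN and from 1462 through 1703 to 2038 at SN. The single NSN oocyte inside the SN range was number 87, and the log2 ratio was 0.56, with 0.68, 0.04 and 0.82 within the index sequences. *Pan2* (chr10:128303335-128321358, plus strand) had a log2 ratio of 0.31 and *Parn* (chr16:13537960-13668170, minus strand) one of 0.33. *Pan2* means were 1162 ± 139 and 1442 ± 266, and *Parn* means were 349 ± 39.9 and 439 ± 90.7. For both genes the oocytes of the stages overlapped, and *Pan2* had -0.12 within 1 of the index sequences.

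The scaffold and CCR4-type genes were spread widely between oocytes of 1 group. *Cnot1* (chr8:95719451-95807464, minus strand) had 1108, 2269, 2367 and 3603 normalized counts at NSN and 1008 to 2402 at SN, a log2 ratio of -0.40 within overlapping ranges. *Cnot6* (chr11:49671503-49712723, minus strand) was at 123, 333, 347 and 370 at NSN and from 114 through 146 to 316 at SN. Its log2 ratio of -0.59 was past 1.5-fold by a small margin and lost that with a pseudocount of 5 (-0.58) or without any of oocytes 69, 70, 72, 78, 79, 80 or 85 (-0.52 to -0.46). It was -1.22 with medians and -0.85 without oocyte 87. Within the index sequences it was -1.40, 0.89 and -0.65, so 1 of them went the other way. The staging gene *Cnot6l* (chr5:96070333-96164171, minus strand) had means of 2610 ± 1078 and 2487 ± 843, a log2 ratio of -0.07, although it entered the staging as an SN marker.

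*Zfp36l2* (chr17:84183931-84187947, minus strand), whose protein binds AU-rich elements, had the fewest counts. The NSN oocytes held 22.2, 38.7, 72.6 and 90.4 normalized counts and the SN oocytes ran from 8.04 through 18.9 to 42.9. The highest SN values lay above the lowest NSN values, and the log2 ratio was -1.26. The summed level was 7.41 CPM (6.56 to 8.34) at NSN and 2.64 CPM (2.26 to 3.05) at SN. Within index sequences the ratio was -0.22, -0.52 and -1.80, so the difference was largest in 1 of them.

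**Figure D2:**
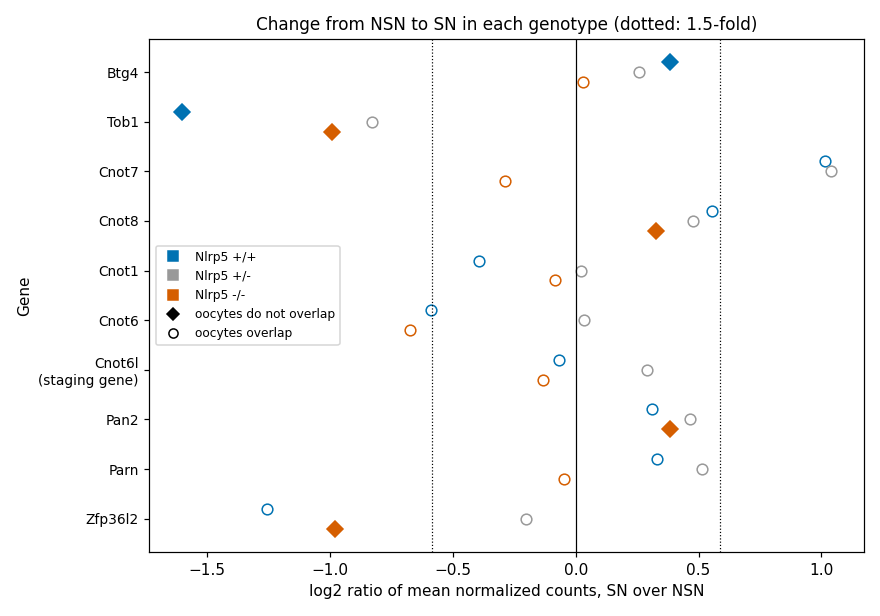
Log2 ratio of mean normalized counts, SN over NSN, for each gene in *Nlrp5*+/+ (blue), *Nlrp5*+/- (grey) and *Nlrp5*-/- (orange); filled diamonds mark genes whose oocytes do not overlap between stages and dotted lines mark 1.5-fold. *Tob1* lies left of the lower 1.5-fold line in all genotypes, whereas *Cnot7* lies near 1 in *Nlrp5*+/+ and *Nlrp5*+/- and at -0.29 in *Nlrp5*-/-.

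In *Nlrp5*+/- oocytes the same comparison put 2 of 9 genes past 1.5-fold, *Cnot7* higher and *Tob1* lower, against 23.0% of all 13619 genes. None of the 9 had oocytes without overlap, as was so for all but 1.34% of genes. *Cnot7* ran from 764 through 2165 to 3471 at NSN and from 2713 through 4557 to 6013 at SN, a log2 ratio of 1.04 with 6 of 7 SN oocytes above every NSN oocyte. *Tob1* ran from 36.4 through 154 to 284 at NSN and from 24.2 through 80.9 to 120 at SN. The ratio of -0.83 thus came with wide overlap, in which 5 of 9 NSN oocytes were above every SN oocyte and NSN oocytes 56 and 61 were below most of them. *Btg4* ran from 7076 through 8344 to 13389 and from 8762 through 10985 to 12548, with a ratio of 0.26. *Cnot8* (0.48), *Pan2* (0.47) and *Parn* (0.51) were higher at SN by less than 1.5-fold, and *Cnot1* (0.02), *Cnot6* (0.03) and *Zfp36l2* (-0.20) differed little in their means. The *Cnot6* value rested on SN oocyte 55, without which it was -0.40, and *Cnot1* was then at -0.16. *Zfp36l2* ran from -0.43 with summed counts to 0.18 with medians. Only 2 index sequences held both stages in this genotype, 1 of them with oocyte 55 as its only SN oocyte. The ratios within them were 1.27 and 1.10 for *Cnot7* and -1.35 and -1.10 for *Tob1*. *Btg4* had -0.22 and 0.53, so the index sequence with oocyte 55 went the other way. *Cnot8* had -0.03 and 0.44, *Pan2* 0.02 and 0.41, *Parn* 0.21 and 0.46, *Cnot1* 0.77 and 0.17, *Cnot6* 1.498 and -0.02 and *Zfp36l2* -0.05 and -1.01. Oocytes 55 and 61 had been staged against the cluster they fell in. Without them, 3 of 9 genes lay past 1.5-fold, and *Cnot6* was at -0.47 and *Cnot1* at -0.21.

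In *Nlrp5*-/- oocytes 3 of 9 genes lay past 1.5-fold, all lower at SN, against 32.0% of all 13844 genes. The oocytes did not overlap for 4 of 9 genes, against 20.2% of all genes, a high share because only 2 SN oocytes were compared with 4. *Tob1* stood at 139, 192, 223 and 239 at NSN and at 87.7 and 111 at SN, a ratio of -0.99, and at -1.05 within the 1 index sequence that held both stages. *Tob1* was therefore lower at SN past 1.5-fold in each genotype. In *Nlrp5*+/- its ratio ran from -0.96 to -0.65 when 1 oocyte was left out. *Zfp36l2* stood at 40.9, 44.2, 59.1 and 82.5 at NSN and at 20.2 and 36.2 at SN, a ratio of -0.98. That ratio was -0.58 without oocytes 13 and 14, the latter with raised granulosa markers, -0.63 without SN oocyte 7 and -1.44 without SN oocyte 31. Within the index sequence it was -0.23. *Cnot6* had a ratio of -0.67, which was -0.41 with summed counts, -0.48 with medians, -0.26 without oocytes 13 and 14, -0.33 without 13 alone, -0.31 without 7, -1.17 without 31 and 0.11 within the index sequence. *Cnot8* (0.33) and *Pan2* (0.38) were higher in both SN oocytes than in any NSN oocyte, but were at 0.03 and 0.10 within the index sequence, which holds 2 NSN oocytes and 1 SN oocyte.

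*Btg4* and *Cnot7* overlapped between stages in *Nlrp5*-/-. *Btg4* stood at 6568, 8092, 8517 and 9024 in the NSN oocytes and at 7741 and 8690 in the SN oocytes, a log2 ratio of 0.03. *Cnot7* stood at 1028, 2421, 3834 and 4868 at NSN and at 1494 and 3488 at SN, a ratio of -0.29. Both SN values lay inside the NSN range. When raw counts were summed in place of averaging, the *Cnot7* ratio was 0.12. It was 0.20 without oocyte 7, -1.02 without oocyte 31, -0.55 without oocytes 13 and 14 and -0.06 within the index sequence, so these 6 oocytes do not settle its sign. Whether the stage differences of *Nlrp5*-/- and *Nlrp5*+/+ oocytes differ from each other was not tested.

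The second question was how *Nlrp5* genotype relates to these mRNAs at a given stage. At NSN, none of the 10 genes lay past 1.5-fold between *Nlrp5*-/- and *Nlrp5*+/+, against 22.8% of 13838 genes, and none had oocytes without overlap, against 7.1% of genes. The log2 ratios ran from -0.46 for *Cnot1* to 0.19 for *Cnot8*, with a median of -0.13 beside 0.00 over all genes. *Btg4* had a ratio of -0.25, with means of 9542 and 8050, *Cnot7* one of 0.18 and *Tob1* one of -0.10. The count of 0 was 2 without *Nlrp5*+/+ oocyte 87 and 1 without *Nlrp5*-/- oocyte 13.

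At SN, 2 of 10 genes lay past 1.5-fold, both lower in *Nlrp5*-/-, against 27.6% of 13354 genes. *Btg4* stood at 7741 and 8690 in the 2 *Nlrp5*-/- oocytes, below the lowest *Nlrp5*+/+ oocyte at 11607, with a log2 ratio of -0.60. *Cnot7* stood at 1494 and 3488 against 2839 to 7066, a ratio of -1.12. Only the lower of the mutant oocytes lay under the *Nlrp5*+/+ range, and the ratio was -1.86 without oocyte 31 and -0.64 without oocyte 7. The *Btg4* ratio was below 1.5-fold without oocyte 7 (-0.52), without *Nlrp5*+/+ oocyte 85 (-0.57), with scaling by the total count (-0.55), with medians (-0.58) and with summed counts (-0.54).

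Oocytes of the genotypes did not overlap at SN for 3 of 10 genes, against 15.1% of all genes. Besides *Btg4* these were *Cnot6l*, lower in *Nlrp5*-/-, and *Tob1*, higher. *Cnot6l* stood at 1684 and 1808 against 1813 to 4090 in *Nlrp5*+/+, so that the ranges abutted, and the log2 ratio was -0.51. *Tob1* stood at 87.7 and 111 against 39.4 to 79.4, a ratio of 0.51. The other ratios were -0.25 for *Cnot6*, -0.20 for *Parn*, -0.15 for *Cnot1*, -0.10 for *Pan2*, -0.04 for *Cnot8* and 0.29 for *Zfp36l2*, all within overlapping ranges.

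A staging score, the mean log2 level of the NSN markers less that of the SN markers without *Cnot6l*, was -4.21 and -3.84 in the 2 *Nlrp5*-/- SN oocytes. In the 6 *Nlrp5*+/+ SN oocytes it ran from -5.26 through -4.75 to -4.06, and in the 4 NSN oocytes from -3.21 to -2.84. Of the *Nlrp5*-/- SN oocytes, number 7 thus lay inside the range of *Nlrp5*+/+ SN oocytes and number 31 outside it on the NSN side. *Btg4* and *Cnot7* were lower and *Tob1* was higher in them on average, and in *Nlrp5*+/+ oocytes NSN differed from SN in these same directions. Between oocytes 7 and 31 the order followed the score for *Tob1* (87.7 and 111). It did not for *Btg4* (7741 and 8690) or *Cnot7* (1494 and 3488), which were lower in oocyte 7. The part of the staging score in the genotype ratios was not tested.

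**Figure D3:**
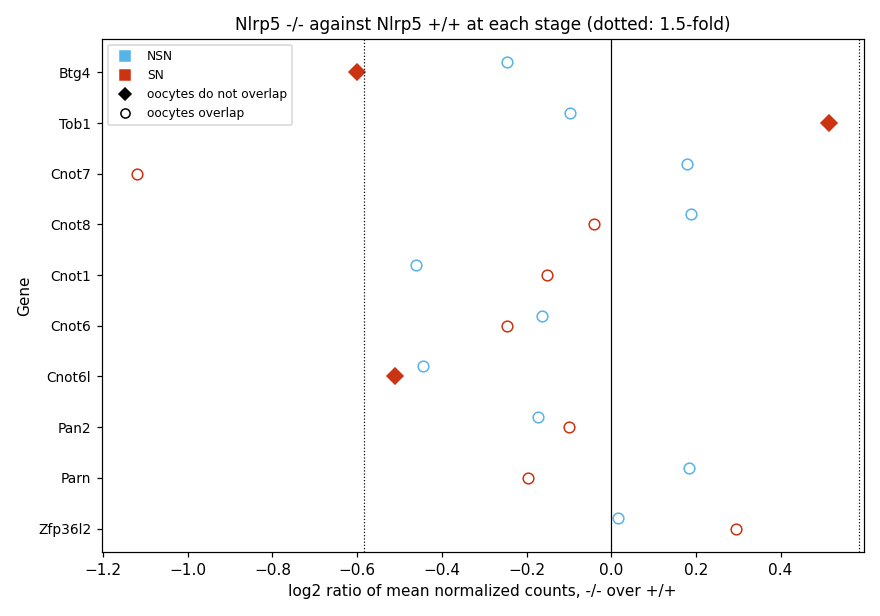
Log2 ratio of mean normalized counts, *Nlrp5*-/- over *Nlrp5*+/+, for each gene at NSN (light blue, 4 against 4 oocytes) and SN (red, 2 against 6); filled diamonds mark genes whose oocytes do not overlap and dotted lines mark 1.5-fold. No NSN point passes 1.5-fold, whereas *Cnot7* at -1.12 and *Btg4* at -0.60 do at SN.

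Against *Nlrp5*+/- littermates, 1 of 10 genes lay past 1.5-fold at NSN, against 20.8% of 13860 genes. This was *Zfp36l2*, higher in *Nlrp5*-/- by 0.65, which was 0.25 without *Nlrp5*-/- oocytes 13 and 14, 0.51 without *Nlrp5*+/- oocyte 61, 0.57 without 54, 0.50 without 63 and 0.42 without 14 alone. None of the 10 had oocytes without overlap, against 1.16% of genes. At SN, *Cnot7* was lower by a log2 ratio of -0.84, the single gene past 1.5-fold, against 25.6% of 13335 genes. It was -0.36 without oocyte 7 and -1.58 without oocyte 31. *Btg4* was the single gene whose oocytes did not overlap, against 11.1% of genes. The littermate oocytes ran from 8762 to 12548 for *Btg4*, above 7741 and 8690, and the ratio was -0.40. The *Nlrp5*-/- oocytes are the same in both comparisons.

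Heterozygous oocytes were also set against *Nlrp5*+/+. At NSN all 10 ratios were below 0, from -0.64 for *Zfp36l2* to -0.01 for *Cnot8*, with a median of -0.36 beside 0.04 over all genes. Only *Zfp36l2* and *Cnot1* (-0.61) lay past 1.5-fold, against 13.2% of 13736 genes. None had oocytes without overlap, against 0.444% of genes. Neither passed 1.5-fold without *Nlrp5*+/+ oocyte 79 (-0.31 and -0.32) or without *Nlrp5*+/- oocyte 61 (-0.49 and -0.55). *Zfp36l2* also did not without oocytes 54 (-0.55), 63 (-0.49) or 78 (-0.49), nor *Cnot1* without 48 (-0.58) or 56 (-0.56). At SN no gene lay past 1.5-fold, against 7.71% of 13300 genes, and none had oocytes without overlap, against 0.0827%. The SN ratios ran from -0.28 for *Cnot7* to 0.42 for *Zfp36l2*, and that of *Btg4* was -0.20, with 5 of 7 *Nlrp5*+/- oocytes below every *Nlrp5*+/+ oocyte.

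The 3 genes with the longest transcripts had the highest correlations with a property of the whole library. In each oocyte the median centred log2 level of 1477 genes with transcripts of at least 6000 bases was compared with that of 1734 genes with transcripts of at most 2000 bases. The difference, a measure of how well long mRNA is represented, ran from -1.07 in *Nlrp5*+/- oocyte 56 to 0.55 in *Nlrp5*-/- oocyte 13 and 0.55 in *Nlrp5*+/- oocyte 55. Over the 33 oocytes its Spearman correlation was 0.53 with *Cnot1* (transcript of 8940 bases), 0.57 with *Cnot6* (6196) and 0.52 with *Cnot6l* (8564). It was 0.45 with *Zfp36l2* (3764), 0.44 with *Tob1* (2323), 0.41 with *Cnot7* (4707), 0.06 with *Pan2* (4439), -0.01 with *Btg4* (1574), -0.12 with *Parn* (2914) and -0.28 with *Cnot8* (2197). Among these 7 genes the order did not follow transcript length. Both values of a pair come from 1 library, and no p is given. The measure had a median of 0.37 in *Nlrp5*+/+ NSN oocytes, -0.06 in *Nlrp5*+/+ SN oocytes and -0.08 in *Nlrp5*+/- NSN oocytes. Its part in the lower *Cnot1* and *Cnot6* of the last 2 groups was not tested.

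**Figure D4:**
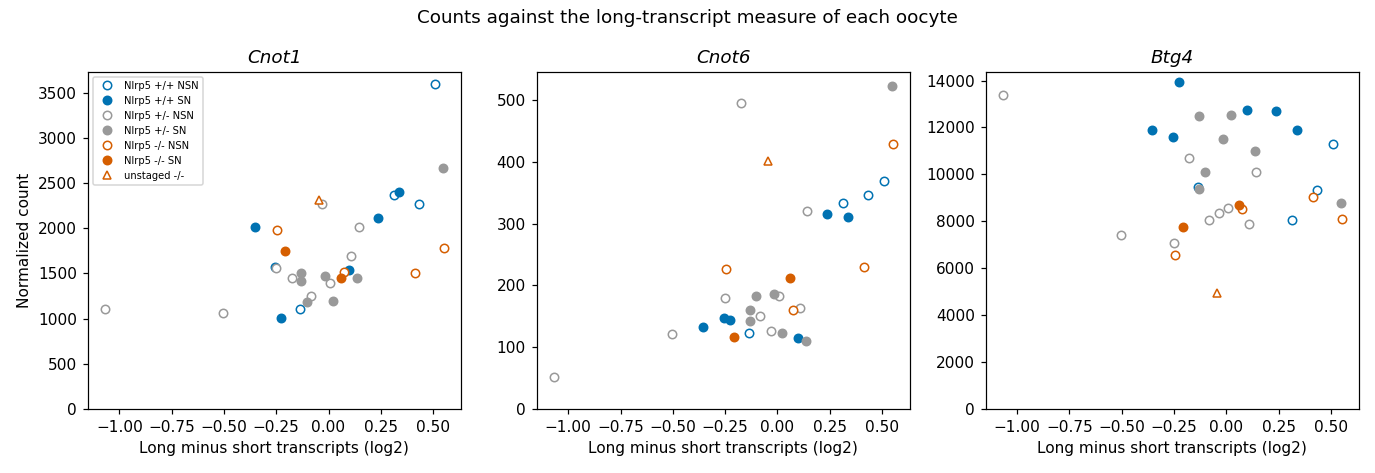
Normalized counts of *Cnot1*, *Cnot6* and *Btg4* against the long-transcript measure (log2) of the same oocyte, for all 33 oocytes, coloured by genotype with filled circles for SN and a triangle for the unstaged oocyte 15. *Cnot1* and *Cnot6* are higher in oocytes with a higher measure (Spearman 0.53 and 0.57), and *Btg4* shows no such order (-0.01).

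The genes whose counts were most like those of 9 of the members over the 33 oocytes were also listed, among 8441 genes with a mean of at least 100. *Zfp36l2*, with a mean of 38.3, was not compared. *Btg4* was most like *Hacd2* (Spearman 0.88), *Yeats4* (0.85) and *Psmd11* (0.82). *Cnot7* was most like *Dnajb4* (0.96), *Tiparp* (0.95) and *Zdhhc2* (0.93), the last of which is the overlapping gene named above. *Cnot1* was most like *Brwd1* (0.93) and *Huwe1* (0.92). *Cnot6* was most like *Pcf11* (0.88), *Med13* (0.82) and *Mga* (0.80), and *Cnot6l* was most like *Suz12* (0.93), *Arap2* (0.89) and *Nipbl* (0.88). *Cnot8* was nearest to *Nup85* (0.87), *Kif22* (0.87) and *Mindy1* (0.83), and *Tob1* to *D1Ertd622e* (0.84), *Abcd3* (0.83) and *Rab5a* (0.81). *Pan2* was nearest to *Gbf1*, *Zfp592* and *Upf1* (0.78, 0.78 and 0.77), and *Parn* to *Lyrm4*, *Rpap3* and *Pak1ip1* (0.77, 0.73 and 0.71). Among the 45 pairs of members the correlation was highest for *Cnot8* with *Pan2* (0.72) and lowest for *Cnot6* with *Cnot8* (-0.52). Stage, genotype and library properties are shared by all of these values.

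The rest of the decay machinery was counted from lists of the pathway. The counts below stand beside 27.9% of all genes past 1.5-fold in *Nlrp5*+/+ stages, of which 2351 were lower and 1434 higher at SN. The 6 other CCR4-NOT subunit genes stayed within 1.5-fold between stages in *Nlrp5*+/+ oocytes, with a median log2 ratio of 0.14 and the lowest value, -0.36, for *Cnot9*. Of 9 other deadenylase and BTG/TOB genes 3 were past 1.5-fold, all lower at SN, and *Btg3*, a further adaptor gene, had no overlap between oocytes. *Btg3* averaged 116 normalized counts (66.0 to 236) at NSN and 27.4 (17.2 to 41.8) at SN, a log2 ratio of -2.04. Of 15 decapping and 5′ to 3′ decay genes 2 were past 1.5-fold, both lower. *Ddx6*, the helicase of stored and decaying mRNA particles, averaged 971 (386 to 1323) and 216 (147 to 315), a ratio of -2.16.

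Of 16 genes of the exosome and 3′ to 5′ decay 4 were lower past 1.5-fold and none was higher. *Skiv2l*, the helicase that feeds cytoplasmic mRNA to the exosome, averaged 351 (277 to 416) at NSN and 178 (122 to 240) at SN. Among 15 genes for uridylation and decay-recruiting RNA-binding proteins 5 were lower and 1 was higher. *Tnrc6a*, a partner of Argonaute proteins, had a ratio of -1.68, *Nanos1* one of -1.21 and the m6A reader gene *Ythdf2* one of -1.14, each without overlap between oocytes, although by a hair for *Tnrc6a* (lowest NSN oocyte 134, highest SN oocyte 133). *Ythdf2* averaged 1878 (1642 to 2141) at NSN and 850 (428 to 1107) at SN. *Samd4* was higher at SN, from a mean of 2.3 to one of 17.5, too few counts for a firm value. The genes just named were chosen in *Nlrp5*+/+. In *Nlrp5*+/- oocytes *Ddx6* (-1.29), *Skiv2l* (-1.24), *Btg3* (-1.03) and *Nanos1* (-0.87) were lower at SN past 1.5-fold, and *Ythdf2* (-0.55) and *Tnrc6a* (-0.54) were not past it. Over the lists, 1 of 6, 1 of 9, 3 of 15, 6 of 16 and 1 of 14 genes were past 1.5-fold there, in the order above, beside 23.0% of all genes. Of these, 1 CCR4-NOT gene, 2 decapping genes and 1 exosome gene were higher at SN. Without overlap between oocytes, 2 decapping genes were higher and 3 exosome genes lower, beside 1.34% of all genes without overlap. In *Nlrp5*-/- oocytes *Ddx6* (-1.66), *Btg3* (-1.78), *Skiv2l* (-1.49), *Tnrc6a* (-0.70), *Nanos1* (-0.93) and *Ythdf2* (-0.63) were also lower at SN. Over the lists, 0 of 6, 2 of 9, 4 of 15, 4 of 16 and 5 of 16 genes were past 1.5-fold in this genotype, beside 32.0% of all genes, and 1 deadenylase or BTG/TOB gene and 2 decapping genes among them were higher.

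**Figure D5:**
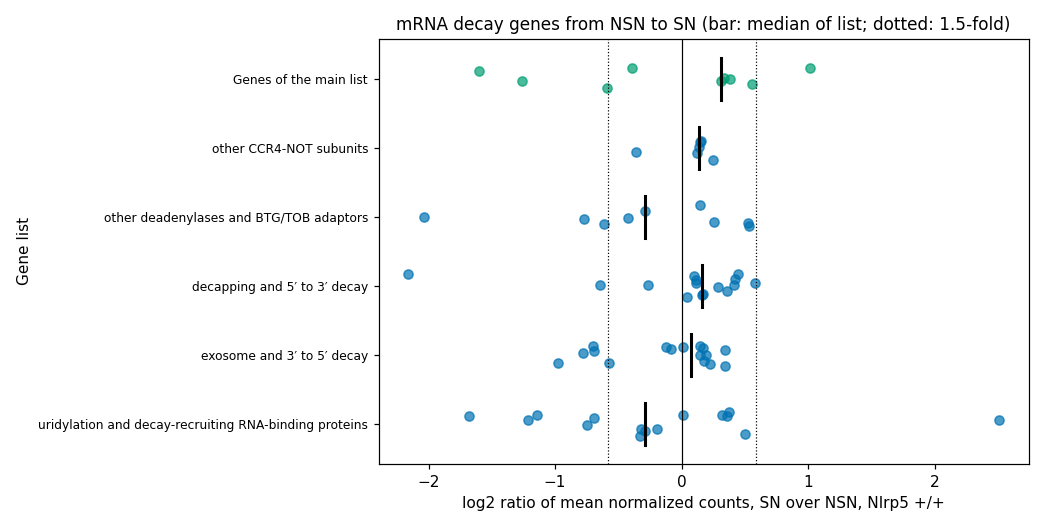
Log2 ratio of mean normalized counts, SN over NSN, in *Nlrp5*+/+ oocytes for the 9 genes counted (green) and for the genes of 5 other mRNA decay lists (blue), 1 point a gene, with a bar at the median of each list and dotted lines at 1.5-fold. Points past 1.5-fold are mostly on the lower side, as they are over all genes (2351 lower, 1434 higher), among them *Ddx6* at -2.16 and *Btg3* at -2.04.

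Between *Nlrp5*-/- and *Nlrp5*+/+ the genes of these lists that are named next were past 1.5-fold and without overlap between oocytes. Of all genes, 7.1% at NSN and 15.1% at SN were without overlap. At NSN there were *Tob2*, an adaptor gene related to *Tob1*, with means of 1098 against 682 (log2 ratio 0.69), and *Lsm3* with 334 to 558 against 668 to 703 in single oocytes (-0.63). At SN *Pde12* (0.81), *Patl2* (0.98), *Edc4* (0.64) and *Ythdf2* (0.77) were higher and *Btg3* (-0.73), *Dis3l2* (-1.09) and *Exosc6* (-0.94) lower in the 2 *Nlrp5*-/- oocytes. *Ythdf2* averaged 1450 against 850. None of the 6 other CCR4-NOT subunit genes was past 1.5-fold at either stage.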

How the data were processed

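The deposited table gives raw read counts per gene, which the authors made from single-oocyte poly(A) libraries with Trim Galore and HISAT2 after leaving out shallow libraries. Methods name GRCm39, whereas the table carries GRCm38 coordinates, which are printed as they stand. How multimapping reads and strand were handled is not given in the sources used here. Other deposited tables (reads per library, and the authors' called genes with fold changes and p-values) were not used. Of 35373 entries, 52 repeated another and the one with more counts was kept, which left 35321 genes. Genotype came from the labels. Stage came from the study's plots.

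Counts were divided by median-of-ratios size factors over 33 oocytes (11850 genes). A gene was tallied at a mean of at least 10 normalized counts over the oocytes compared, and called past 1.5-fold or without overlap between oocytes. No test between groups was made, and outlying oocytes were sought with Dixon's ratio. Named genes were all 10 members, up to 4 per other list past both criteria in *Nlrp5*+/+ stages or *Nlrp5*-/- against *Nlrp5*+/+, and the 3 most correlated genes per member with a mean of at least 100. Some genes that these rules name are not reported here. The genes, lists and alternatives were chosen with earlier results of these data known. Of 528 pairs of libraries 0 were identical (Pearson 0.89 to 0.98 on log2 counts). Depth was 4225037 to 15579217 counts, and the Poisson intervals are exact at 95%. Transcript lengths and 3′ ends came from GENCODE vM39 on GRCm39, with a length for 98.4% of genes. The scaling and ratios were tested on simulated data. Alternatives were total count, trimmed mean of M-values (TMM) or within-comparison scaling, medians, summed counts, a pseudocount of 5, other filters, and leaving out oocytes. Scripts ran in Python 3.11.15 (matplotlib 3.10.9, scipy 1.17.1, pandas 2.3.3, numpy 2.4.6).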

Additional observations from a re-analysis of the deposited data

Results flagged for a closer look

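Within each group of 4 to 9 staged oocytes, the highest and the lowest value of each of the 10 genes were compared with their nearest neighbours by Dixon's ratio, in 50 groups of values. An oocyte stood apart in 6, and chance alone marks about 1 in 20. *Nlrp5*+/- SN oocyte 55, staged against the cluster it fell in, stood apart for 3 of the genes with long transcripts. It had 2664 normalized counts of *Cnot1* (the other 6 oocytes 1181 to 1501), 522 of *Cnot6* (111 to 187) and 5324 of *Cnot6l* (1724 to 2349), and its long-transcript measure of 0.55 was the highest of its genotype. *Cnot6* was low in *Nlrp5*+/+ NSN oocyte 87, at 123 against 333 to 370, where the measure was -0.14, the lowest of the 4. *Tob1* was low in *Nlrp5*+/+ SN oocyte 80, at 39.4 against 71.9 to 79.4. *Parn* was low in *Nlrp5*-/- NSN oocyte 14, at 328 against 417 to 424, an oocyte with raised granulosa cell markers.

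The unstaged *Nlrp5*-/- oocyte 15 entered no comparison within a stage. Its *Cnot6* value of 402 lay above the 10 *Nlrp5*+/+ oocytes (114 to 370) but within the other *Nlrp5*-/- oocytes (116 to 428) and below *Nlrp5*+/- oocytes 55 (522) and 63 (495). Its granulosa cell markers summed to 1315 CPM, the highest of all oocytes. The part of these markers in the *Cnot6* value was not tested.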

How the results depend on the processing

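No paired analysis was possible because the replicate numbers only name oocytes in accession order. Ratios within shared index sequences stand beside the stage results. Single gene ratios moved by less than the SD over oocytes in 1623 of 1640 recomputed values. That SD is of single oocytes, and a group mean seldom moves as far, so the count does not measure stability. No ratio past 1.5-fold changed sign, whereas smaller ones did, such as *Cnot7* in *Nlrp5*-/- stages (-1.02 to 0.20 leaving out 1 oocyte). In *Nlrp5*+/+ stages *Tob1* stayed between -1.72 and -1.42 and *Cnot7* between 0.83 and 1.22 in every alternative scaling, summary or omission of 1 oocyte. Within index sequences they ran wider, *Tob1* from -1.90 to -1.41 and *Cnot7* from 0.46, which is under 1.5-fold, to 1.98. The cause of the moves below was not tested. With medians over oocytes, the genes past 1.5-fold numbered 4 in *Nlrp5*+/- stages (2 with means), and at *Nlrp5*-/- against *Nlrp5*+/+ 1 at NSN (0) and 1 at SN (2). Medians gave 4 (2) at NSN and 1 (0) at SN for *Nlrp5*+/- against *Nlrp5*+/+. Summed counts gave 1 at NSN for *Nlrp5*-/- against *Nlrp5*+/+ and 0 (1) against *Nlrp5*+/-, and total count scaling gave 1 at SN. Without oocytes 13 and 14 there was 1 (3) in *Nlrp5*-/- stages, 2 at NSN against *Nlrp5*+/+ and 2 against *Nlrp5*+/-. Without oocytes 55 and 61 there were 0 at NSN in both comparisons with *Nlrp5*+/-. Disregarding stage gave 1 for *Nlrp5*-/- and 0 for *Nlrp5*+/- against *Nlrp5*+/+.

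Leaving out 1 oocyte gave 2 to 5 genes in *Nlrp5*-/- stages (5 without 31). For *Nlrp5*+/- against *Nlrp5*+/+ it gave 0 to 4 at NSN (0 without 61 or 79, 1 without 48, 54 or 56, 4 without 53 or 87) and 0 to 1 at SN (1 without 77 or 86). For *Nlrp5*-/- against *Nlrp5*+/+ it gave 0 to 2 at NSN (1 without 13, 2 without 87) and 1 to 3 at SN (1 without 85). Against *Nlrp5*+/- it gave 0 to 2 at NSN (0 without 54 or 61, 2 without 53 or 63) and 0 to 4 at SN (0 without 7, 2 without 37, 38 or 39, 4 without 31).

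The median log2 ratio of *Nlrp5*-/- against *Nlrp5*+/- at SN, -0.22, was -0.091 with medians, -0.062 with summed counts, -0.051 without 55 and 61, 0.13 without regard to stage, and -0.53 to -0.051 leaving out 1 oocyte (-0.53 without 31, -0.051 without 55). In *Nlrp5*-/- stages, -0.09, it was -0.32 to 0.11 (0.11 without 7, -0.32 without 31). The 1.5-fold share of all genes moved over 1.5 times in 13 of 18 recomputations with another filter, from 27.9% to 16.7% at a mean of at least 100 in *Nlrp5*+/+ stages. Depth limits *Zfp36l2* most, with as few as 3 raw counts in an oocyte.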

Other observations

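The unstaged *Nlrp5*-/- oocyte 15 had 4926 normalized counts of *Btg4*, below the other 6 *Nlrp5*-/- oocytes (6568 to 9024) and all 10 *Nlrp5*+/+ oocytes (8071 to 13922). Its *Cnot7* value of 918 was likewise below both sets (1028 to 4868 and 1556 to 7066). *Tob1* at 126 lay between the SN and NSN oocytes of its genotype, and its staging score was -2.94. Its *Nlrp5* level of 176 CPM was the lowest of all libraries, and its oocyte markers summed to 15184 CPM, the lowest as well.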
